A study of Mus musculus with 24 samples.

Results

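The genes examined were 10 feedback regulators and effectors of mitogen-activated protein (MAP) kinase signaling in the mouse hippocampus. They were the dual-specificity phosphatase genes Dusp1, Dusp4, Dusp5 and Dusp6, the Sprouty genes Spry2 and Spry4, the Sprouty-related gene Spred1, and the Etv factor genes Etv1, Etv4 and Etv5. Their rows were found by Ensembl identifier among the 55471 genes counted, and all 10 passed the filter on low counts that kept 18251 genes over the 12 mice. The list was chosen by gene family, with the genotype and housing differences measured in these same libraries already known. Their changes are therefore given as a description of these mice, and adjusted p-values come from fits of the whole table.

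RNA was sequenced from the whole hippocampus of 12 female mice of 3 to 6 months, labeled C57BL/6 and given as C57BL/6J in the methods, with 1 animal per library and 3 mice in each of 4 groups. CBP-ifKOs carried floxed Crebbp, the gene of the lysine acetyltransferase CBP, and the tamoxifen-inducible Camk2a-creERT2 transgene, which is active in forebrain excitatory neurons, so that other hippocampal cells kept CBP. Control mice were littermates without the Cre transgene, and mice of both genotypes received 5 administrations of tamoxifen. Each genotype was kept either in standard cages (SC), which several mice could share, or in an enriched environment (EE). The EE boxes were larger, held running wheels and toys, and could house more mice. The comparisons asked how loss of CBP and housing were related to the transcript levels in these mice.

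Growth factors and neuronal activity switch on the cascade from Ras through Raf and MEK to ERK, a MAP kinase. Active ERK raises transcription of its own inhibitors, which is how the pathway limits itself: Dusp proteins remove the activating phosphates from MAP kinases, and Sprouty and Spred proteins hold back Ras and Raf. The Etv1, Etv4 and Etv5 proteins form the PEA3 group of ETS transcription factors, which fibroblast growth factors and neurotrophins induce and ERK activates. In neurons, several of these genes are also known as activity-regulated genes, whose transcripts rise within minutes to hours of stimulation. CBP is a coactivator that binds the phosphorylated form of CREB, the factor of the cyclic AMP response element (CRE).

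The promoters of 7 of the 10 genes were found in RefSeq sequences of GRCm38.p6. Stretches of 200 bases, from 250 to 51 bases before a RefSeq transcription start, are shown for Dusp1, Spry2 and Etv5 because Dusp1 was the gene whose level varied most within a group, whereas Spry2 and Etv5 were among those lower in CBP-ifKOs. The Dusp1 stretch is chr17:26508523-26508722 on the minus strand, the Spry2 stretch is chr14:105896870-105897069 on the minus strand, and the Etv5 stretch is chr16:22438419-22438618 on the minus strand, before the more downstream of its RefSeq starts. None of the 3 stretches holds an annotated exon. Capitals mark TGACG, the core of the CRE, read on either strand.
Dusp1: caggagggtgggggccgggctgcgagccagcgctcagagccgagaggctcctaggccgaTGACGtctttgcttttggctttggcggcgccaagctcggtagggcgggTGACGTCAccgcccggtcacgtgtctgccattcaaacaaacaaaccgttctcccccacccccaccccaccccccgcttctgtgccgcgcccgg
Spry2: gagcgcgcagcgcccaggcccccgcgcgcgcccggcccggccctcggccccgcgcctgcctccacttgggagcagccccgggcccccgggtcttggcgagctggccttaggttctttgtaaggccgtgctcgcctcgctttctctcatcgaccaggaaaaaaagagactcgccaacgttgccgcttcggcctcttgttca
Etv5: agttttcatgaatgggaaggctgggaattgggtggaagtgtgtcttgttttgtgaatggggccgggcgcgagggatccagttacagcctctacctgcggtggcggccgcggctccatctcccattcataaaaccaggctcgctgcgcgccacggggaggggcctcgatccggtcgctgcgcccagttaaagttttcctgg

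The Dusp1 stretch holds the whole 8-letter CRE, TGACGTCA, whose first base lies 143 bases before the start, and a further TGACG at 191 bases. The 8 letters were found in 0.828% of the 32851 promoter entries over the same 200 bases, and TGACG in 12.7%, with both strands searched and the core being part of the longer motif. The Dusp5 stretch, which lies on an exon of an antisense transcript and is not printed, holds 1 TGACG and 2 matches of the CArG box of serum response factor, a motif found in 1.16% of entries. No other stretch of Dusp6, Spry2, Spred1, Etv1 or Etv5 held the CRE core, the CArG box, TGANTCA (5.57% of entries) or the long ETS motif CCGGAAGT (1.40%). These matches describe letters in a short window.

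Deletion of Crebbp was visible in the libraries. Crebbp stood at 75.5 ± 5.78 CPM (counts per 1000000 of the effective library size, mean ± SD, n = 3) in control mice in SC and at 50.7 ± 0.796 in CBP-ifKOs in SC, and at 73.0 ± 3.80 and 46.5 ± 1.89 in EE, log2 fold changes of -0.58 ± 0.06 (SE; adjusted p = 5.42e-04) and -0.64 ± 0.06 (adjusted p = 4.07e-04). The libraries held 26874015 to 37448388 counts, 26874015 to 27971488 in the 6 control libraries and 28582210 to 37448388 in the 6 CBP-ifKO libraries. All counts of CBP-ifKOs were even, against 54.0% to 55.1% odd counts among the nonzero counts of control libraries. Whether reads of CBP-ifKOs were counted more than once was not tested. Halved, their libraries would hold 14291105 to 18724194 counts, fewer than the control libraries. Control mouse 1 in EE stood apart by choroid plexus transcripts, whose 5 markers summed to 1246 CPM there and to at most 61.8 CPM in the CBP-ifKOs in EE. In SC these markers summed to 46.8 to 53.1 CPM in control mice and 35.2 to 38.4 CPM in CBP-ifKOs, without overlap, and 1 of 4 tested was lower (Ttr, adjusted p = 2.20e-05). Without this mouse 1 of the 10 genes passed in EE and 6 averaged over housing, as with it. The markers of excitatory neurons, the 4 genes Slc17a7, Camk2a, Neurod6 and Nrgn, summed to 6157 to 6581 CPM in control mice and 6000 to 6430 CPM in CBP-ifKOs in SC, and to 6311 to 6894 CPM and 5626 to 6423 CPM in EE, with overlap in both housings. Of the 4, Nrgn, the gene of the calmodulin-binding protein neurogranin, was lower in CBP-ifKOs in SC (log2 fold change -0.44, adjusted p = 0.00322) and in EE (-0.58, adjusted p = 0.00150), and Nrgn and Neurod6 were lower averaged over housing. Only CBP-ifKOs carry the Camk2a-creERT2 construct, and the paper describes extra reads from gene dose over its regions in acetylation data. Its part in the Camk2a counts was not tested, so overlapping sums do not show equal content of excitatory neurons. Control mouse 3 in SC stood apart by its level of Dusp1 and several activity-regulated genes.

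All 10 genes were expressed in every hippocampus, at 200 or more counts in each library, a minimum set by Etv4 in a CBP-ifKO, which would be 100 if that count were halved. Levels are compared between genes as CPM per kilobase of the gene's exons. In control mice in SC, Spred1, which encodes a Ras inhibitor that works with neurofibromin, stood at 24.7 CPM per kilobase, Dusp6, the cytoplasmic ERK phosphatase, at 22.9, and Spry2 at 19.2. Etv5 followed at 12.1, Etv1 at 10.1 and Dusp5, a nuclear ERK phosphatase, at 7.88. The low end held Dusp1 at 6.67, Dusp4 at 6.07, Etv4 at 4.14 and Spry4 at 3.62. Among neighbors in this order, the ranges over the 3 mice overlapped for Spred1 and Dusp6, Dusp6 and Spry2, Etv1 and Dusp5, Dusp5 and Dusp1, Dusp1 and Dusp4, and Etv4 and Spry4. They did not overlap between Spry2 and Etv5, between Etv5 and Etv1, or between Dusp4 and Etv4. In the other 3 groups Etv4 was the lowest of the 10, at 3.24 CPM per kilobase in control mice in EE, where its range overlapped that of Spry4, and at 2.33 in SC and 2.66 in EE in CBP-ifKOs, where it did not.

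**Figure D1:**
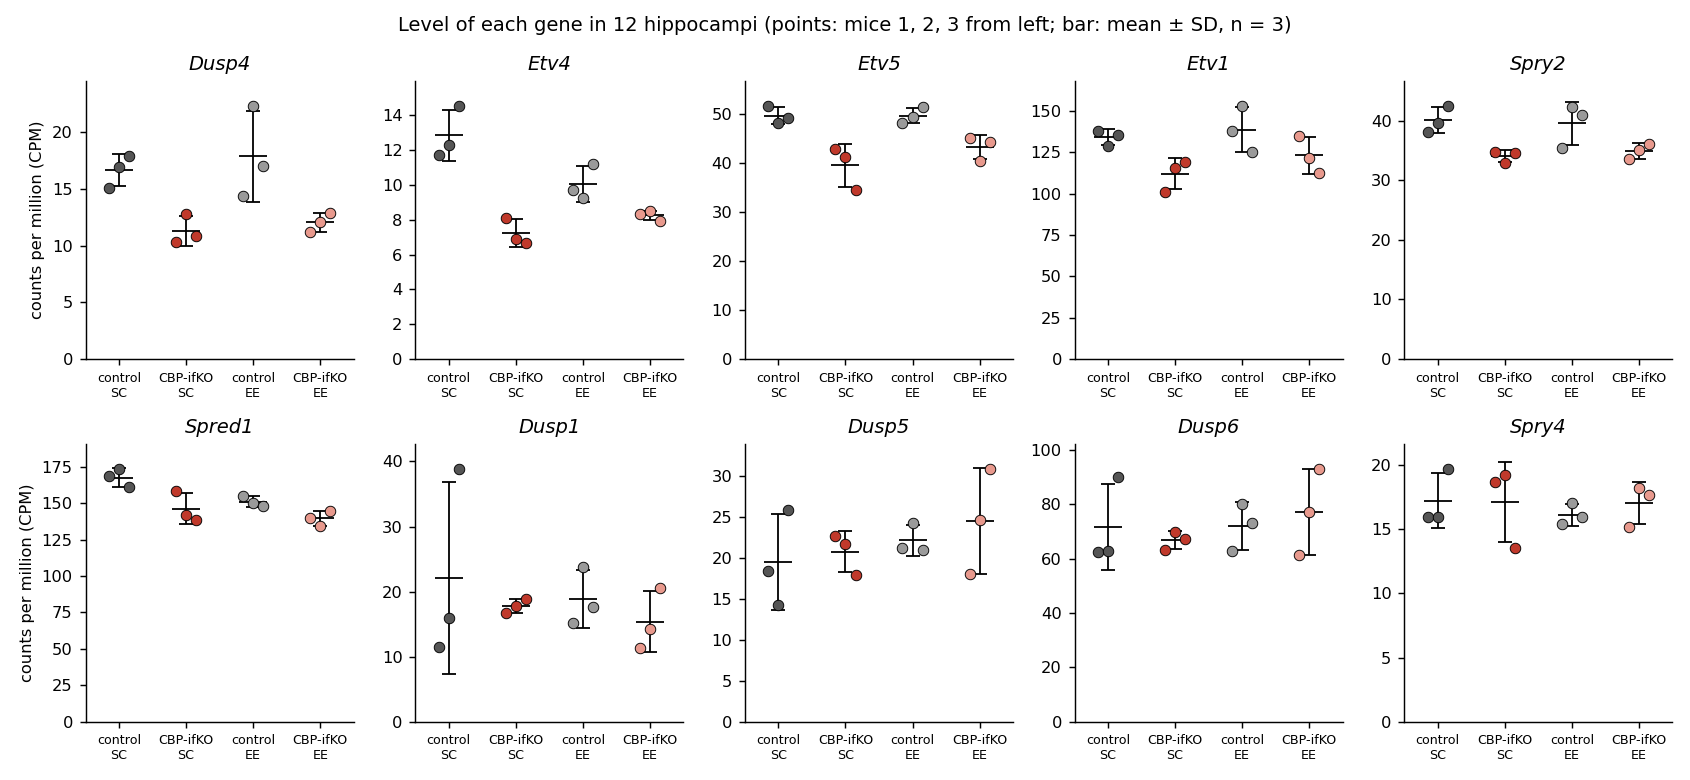
CPM of each gene (vertical axis, from 0) in the 4 groups (horizontal axis). Points are mice 1 to 3 of a group from left to right, the wide bar is the mean and the whiskers are the SD (n = 3). Etv4 and Dusp4 of every CBP-ifKO lie below every control mouse, whereas the Dusp1, Dusp5, Dusp6 and Spry4 groups overlap.

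In SC, CBP-ifKOs had lower levels than control littermates for 4 of the 10 genes at the threshold of an adjusted p of 0.05, namely Etv4, Dusp4, Etv5 and Etv1, and 0 were higher. Among all 17532 genes tested, 5.52% passed this threshold, 4.02% downward and 1.51% upward. An unadjusted p under 0.05 was reached by 6 of the 10, against 20.5% of all genes. The log2 fold changes of the 10 genes ran from -0.83 to 0.09 with a median of -0.25, where the median of all genes tested was -0.002, and 9 of the 10 were negative. In 6 of the 10, every CBP-ifKO lay below every control mouse, and of all genes tested 25.9% had groups without overlap, 13.8% with CBP-ifKOs lower. Since the genes were chosen with this comparison known, the shares are given beside the background without further reading.

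Etv4, a PEA3 factor known for its part in dendrite growth of developing hippocampal neurons, lies on chromosome 11 (GRCm38, 101769742 to 101785371, minus strand). It was measured at 11.7, 12.3 and 14.5 CPM in the 3 control mice in SC and at 8.13, 6.92 and 6.67 CPM in the CBP-ifKOs in SC. The lowest control mouse was thus above the highest CBP-ifKO. The log2 fold change was -0.83 ± 0.12 (SE), a decrease by 43.6%, with an adjusted p of 0.00281 by edgeR. The change passed the threshold in each of the 6 fits that left out 1 mouse, with adjusted p from 0.0034 to 0.0198.

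Dusp4 encodes a nuclear phosphatase of ERK and other MAP kinases and lies on chromosome 8 (34807297 to 34819894, plus strand). Its level was 15.1, 16.9 and 17.9 CPM in control mice in SC and 10.3, 12.8 and 10.8 CPM in the CBP-ifKOs there. The groups did not overlap, and the log2 fold change was -0.56 ± 0.11 (SE; adjusted p = 0.0116). In 3 of 6 fits leaving out 1 mouse the adjusted p exceeded the threshold, at 0.0536 without control mouse 3, 0.0580 without CBP-ifKO 1 and 0.0538 without CBP-ifKO 3. The log2 fold changes in these fits were -0.5, -0.5 and -0.53, respectively.

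The other PEA3 factors moved less than Etv4. Etv5, on chromosome 16 (22381309 to 22439719, minus strand), stood at 51.5, 48.1 and 49.1 CPM in control mice in SC and at 42.8, 41.1 and 34.4 CPM in CBP-ifKOs (log2 fold change -0.33 ± 0.08 (SE), adjusted p = 0.0356). Etv1, on chromosome 12 (38779380 to 38870484, plus strand), stood at 138, 129 and 136 CPM in control mice and at 101, 116 and 119 CPM in CBP-ifKOs (log2 fold change -0.26 ± 0.07 (SE), adjusted p = 0.0414). Neither gene's groups overlapped in SC. The call of Etv5 held in 2 and that of Etv1 in 1 of 6 fits leaving out 1 mouse. Without control mouse 1, control mouse 3, CBP-ifKO 2 or CBP-ifKO 3, the adjusted p of Etv5 was 0.0941, 0.0958, 0.0854 and 0.112, respectively. That of Etv1 lay between 0.0581 and 0.155 without any of the mice other than control mouse 2, and was 0.0790 when all 12 mice entered the fit.

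The Ras inhibitors Spry2 and Spred1 also had groups without overlap in SC, with smaller differences that did not pass the threshold. Spry2, whose product blocks receptor signaling to Ras, stood at 38.1, 39.7 and 42.4 CPM in control mice and at 34.8, 32.9 and 34.5 CPM in CBP-ifKOs (log2 fold change -0.23 ± 0.07 (SE), adjusted p = 0.0614). Spred1 stood at 169, 173 and 161 CPM in control mice and at 158, 142 and 139 CPM in CBP-ifKOs (-0.20 ± 0.06 (SE), adjusted p = 0.0912). Spry2 passed the threshold without control mouse 2 (adjusted p = 0.0437) and Spred1 in DESeq2 (adjusted p = 0.0409), and both did when genes of low counts were retained (0.0418 and 0.0293).

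The remaining 4 genes had overlapping groups in SC. Dusp1, which encodes the nuclear phosphatase known as an immediate early response to stress and activity, was measured at 11.5, 15.9 and 38.8 CPM in control mice and at 16.7, 17.8 and 18.9 CPM in CBP-ifKOs. The control values thus enclosed all CBP-ifKO values, with control mouse 3 far above the others. The log2 fold change of Dusp1 was -0.31 ± 0.32 (SE; adjusted p = 0.639) with control mouse 3 and 0.38 (adjusted p = 0.166) without it. Dusp6 stood at 62.3, 63.0 and 89.9 CPM in control mice, again highest in mouse 3, and at 63.3, 69.9 and 67.2 CPM in CBP-ifKOs, and its log2 fold change went from -0.10 ± 0.12 (SE) to 0.10 without that mouse.

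Dusp5 stood at 18.4, 14.2 and 25.8 CPM in control mice in SC and at 22.7, 21.7 and 18.0 CPM in CBP-ifKOs (log2 fold change 0.09 ± 0.17 (SE), adjusted p = 0.815). Spry4, another Sprouty gene, stood at 15.96, 15.94 and 19.7 CPM in control mice and at 18.7, 19.2 and 13.6 CPM in CBP-ifKOs (-0.01 ± 0.13 (SE), adjusted p = 0.977). Intervals of 2 SE around these log2 fold changes were -0.25 to 0.43 for Dusp5 and -0.28 to 0.26 for Spry4. Dusp5 shares 547 exonic bases with a gene on the opposite strand and Dusp1 shares 11 with Ergic1, and reads from the opposite strands could not be told apart if the counting did not use strand.

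**Figure D2:**
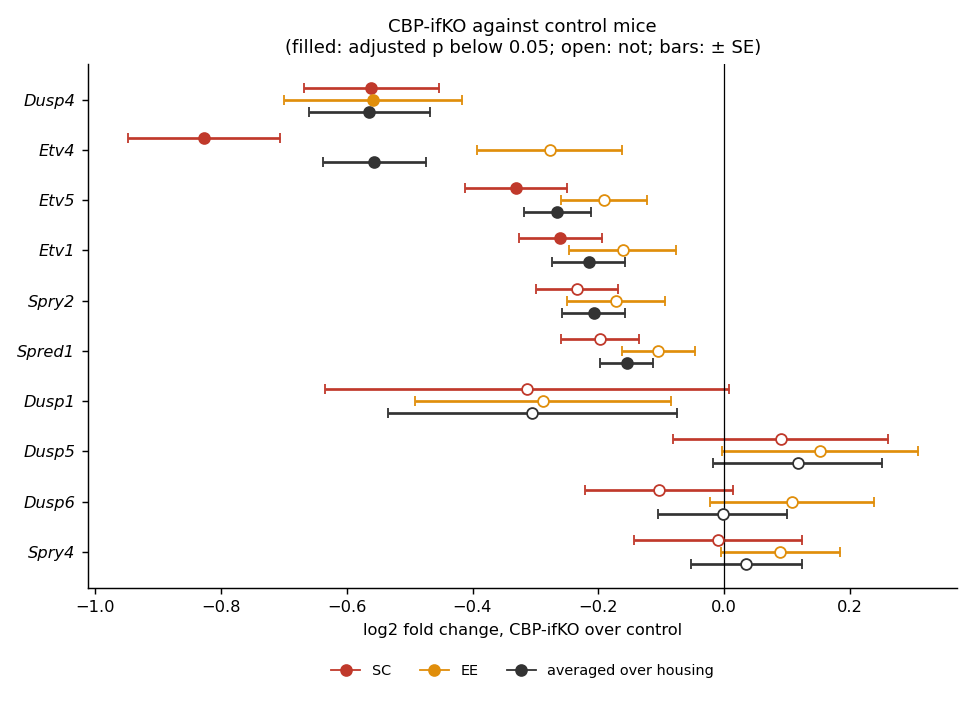
Log2 fold change of each gene in CBP-ifKOs over control mice (horizontal axis) in SC, in EE and averaged over housing. Whiskers are ± SE, and filled points passed an adjusted p of 0.05. Dusp4 lay at -0.56 in each comparison, whereas Etv4 lay at -0.83 in SC and at -0.28 in EE.

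In EE, Dusp4 alone of the 10 genes passed the threshold, downward, where 4.57% of 17625 genes passed, 3.53% downward and 1.03% upward, and 4 of the 10 had an unadjusted p under 0.05, against 19.6% of all genes. Dusp4 was measured at 14.3, 22.3 and 16.97 CPM in control mice and at 11.2, 12.1 and 12.9 CPM in CBP-ifKOs. The groups did not overlap, and the log2 fold change was -0.56 ± 0.14 (SE; adjusted p = 0.0496), which is just inside the threshold. Leaving out any of the mice except control mouse 1 ended the call. The adjusted p was then 0.0858 without control mouse 2, where the log2 fold change was -0.37, and 0.115 without control mouse 3. It was 0.133, 0.131 and 0.120 without CBP-ifKO 1, 2 and 3, and 0.0552 when the even CBP-ifKO counts were halved. Except without control mouse 2, the log2 fold changes of these fits lay between -0.61 and -0.51.

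The 3 Etv genes did not pass in EE. Etv4 stood at 9.70, 9.23 and 11.2 CPM in control mice and at 8.32, 8.49 and 7.93 CPM in CBP-ifKOs, without overlap, and the log2 fold change was -0.28 ± 0.12 (SE; adjusted p = 0.212). Etv5 stood at 48.1, 49.3 and 51.3 CPM in control mice and at 45.0, 40.3 and 44.2 CPM in CBP-ifKOs, also without overlap (-0.19 ± 0.07 (SE), adjusted p = 0.146). For Etv1 the groups overlapped, at 138, 153 and 126 CPM against 135, 122 and 113 CPM (-0.16 ± 0.08 (SE), adjusted p = 0.327). In 4 of the 10 genes, Dusp4, Spred1, Etv4 and Etv5, every CBP-ifKO in EE lay below every control mouse, and of all genes tested 25.3% had groups without overlap, 13.9% with CBP-ifKOs lower.

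Among the inhibitors in EE, Spry2 stood at 35.5, 42.2 and 41.0 CPM in control mice and at 33.5, 35.0 and 36.1 CPM in CBP-ifKOs, with overlap (log2 fold change -0.17 ± 0.08 (SE), adjusted p = 0.250). Spred1 stood at 155, 150 and 148 CPM in control mice and at 140, 134 and 145 CPM in CBP-ifKOs, without overlap (-0.10 ± 0.06 (SE), adjusted p = 0.356). Dusp1, Dusp5, Dusp6 and Spry4 had overlapping groups in EE too. Their log2 fold changes were -0.29 ± 0.20, 0.15 ± 0.16, 0.11 ± 0.13 and 0.09 ± 0.09 (SE), respectively, with adjusted p from 0.483 to 0.703.

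Averaged over housing in the fit of all 12 mice, which uses the same libraries again, 6 of the 10 genes passed the threshold as lower in CBP-ifKOs and 0 as higher, where 16.9% of all genes passed, 10.3% downward and 6.64% upward. The same number had an unadjusted p under 0.05, against 29.9% of all genes. The log2 fold changes were -0.56 ± 0.10 (SE) for Dusp4 (adjusted p = 8.59e-04), -0.56 ± 0.08 for Etv4 (2.52e-04), -0.27 ± 0.05 for Etv5 (0.00292), -0.22 ± 0.06 for Etv1 (0.0179), -0.21 ± 0.05 for Spry2 (0.00954) and -0.16 ± 0.04 for Spred1 (0.0173). All 6 CBP-ifKOs lay below all 6 control mice for 3 of the 10 genes, Dusp4, Etv4 and Etv5, and of all genes 8.56% had 6 mice against 6 without overlap, 5.35% with CBP-ifKOs lower. The calls of Dusp4, Etv4, Etv5 and Spry2 held in each of the 12 fits that left out 1 mouse. Etv1 missed the threshold without CBP-ifKO 1 in SC (adjusted p = 0.0532) or CBP-ifKO 3 in EE (0.0534), and Spred1 without CBP-ifKO 2 (0.0501) or 3 (0.0550) in SC.

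The genes outside this group had averaged log2 fold changes of -0.31 ± 0.23 (SE) for Dusp1, 0.12 ± 0.13 for Dusp5, -0.002 ± 0.10 for Dusp6 and 0.04 ± 0.09 for Spry4, with adjusted p from 0.414 to 0.992. The interval of 2 SE was -0.21 to 0.20 for Dusp6, and it excludes a change of the size measured for Dusp4. For Dusp1 the averaged value was 0.05 without control mouse 3 in SC.

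Markers of oligodendrocyte precursors moved with genotype as well. Of Pdgfra, Cspg4 and Gpr17, 3 of 3 were lower in CBP-ifKOs averaged over housing, and 1 of 3 passed in SC (Pdgfra) and 1 of 3 in EE (Gpr17). Their summed level ran from 122 to 142 CPM in control mice and from 96.2 to 109.6 CPM in CBP-ifKOs in SC, and from 124 to 132 CPM against 102 to 113 CPM in EE. Among 5 astrocyte markers, 1 was lower averaged over housing (Slc1a3) and 0 passed within a housing, with sums of 1478 to 1655 CPM against 1426 to 1448 CPM in SC and of 1446 to 1498 CPM against 1293 to 1366 CPM in EE. Of 5 microglia markers, 2 were lower averaged over housing (Cx3cr1 and Csf1r) and 0 within a housing, and their sums were 292 to 294 CPM in control mice against 263 to 285 CPM in CBP-ifKOs in SC, and 277 to 301 CPM against 256 to 266 CPM in EE. Of 4 endothelial markers, 0 passed in either housing or averaged, with sums of 192 to 198 CPM against 164 to 178 CPM in SC and of 175 to 189 CPM against 181 to 189 CPM in EE. Of 5 interneuron markers, Sst, the gene of somatostatin, was lower in SC and averaged over housing and 0 passed in EE, and the sums were 831 to 894 CPM against 772 to 808 CPM in SC and 846 to 921 CPM against 795 to 825 CPM in EE. Of 4 markers of dentate granule cells, C1ql2 was lower in both housings (log2 fold changes -1.60 and -1.91) and Dsp in EE and averaged over housing, whereas 2 of the 4 had positive values in SC, where the list's median was -0.03, and 1 of 4 in EE, where it was -0.31. Their sums overlapped between genotypes in SC, at 358 to 397 CPM against 335 to 364 CPM, and not in EE, at 342 to 406 CPM against 309 to 319 CPM. Among all genes, 4.02% were lower in SC, 3.53% in EE and 10.3% averaged over housing. Of the 10 marker lists, 6 in SC and 6 in EE had sums without overlap between genotypes, in each case with CBP-ifKOs lower, while 0 of 5 oligodendrocyte markers passed in any of the 3 genotype comparisons. None of these markers was at 0 in any library, and those named were chosen after their values were seen. The Etv, Sprouty and Spred genes are also expressed by glia, and in whole hippocampus fewer cells of a type and less RNA per cell cannot be told apart. The part of these cells in the decrease of the 6 genes was not tested.

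No change with housing passed the threshold among the 10 genes. In control mice, 0 of 10 passed in edgeR and 0 in DESeq2, where 0% of the 18251 genes passed in edgeR and 15 genes in DESeq2. At an unadjusted p under 0.05 there were 2 of 10 (Etv4 and Spred1), against 4.21% of all genes. In CBP-ifKOs, 0 of 10 passed in either tool, where 0.011% of all genes, or 2, passed in edgeR and 51 in DESeq2, and 0 had an unadjusted p under 0.05, against 8.59% of all genes. Averaged over genotype, 0 of 10 passed in either tool, where 0.164% of all genes, or 30, passed in edgeR and 155 in DESeq2, and 1, Spred1, had an unadjusted p under 0.05, against 9.44% of all genes. In the joint test of housing and interaction, with an absolute log2 fold change above 0.5 in control mice, 0 of 10 passed in either tool, against 0.0329% of all genes, or 6, in edgeR and 11 in DESeq2, and 2 had an unadjusted p under 0.05, against 6.87% of all genes.

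For Etv4, the control mice in EE, at 9.23 to 11.2 CPM, all lay below those in SC, at 11.7 to 14.5 CPM, with a log2 fold change of -0.35 ± 0.11 (SE), an unadjusted p of 0.00744 and an adjusted p of 0.999. In CBP-ifKOs the values in EE, at 7.93 to 8.49 CPM, overlapped those in SC, at 6.67 to 8.13 CPM (0.19 ± 0.12 (SE), adjusted p = 0.679). Spred1 was the other gene whose control groups did not overlap, at 148 to 155 CPM in EE against 161 to 173 CPM in SC (-0.15 ± 0.06 (SE), adjusted p = 0.999). That makes 2 of 10 genes without overlap in control mice and 0 of 10 in CBP-ifKOs, where 9.11% and 15.9% of all genes had groups without overlap.

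The activity-regulated phosphatases showed no housing difference beyond the spread between mice. In control mice the log2 fold changes of EE over SC were -0.23 ± 0.33 (SE) for Dusp1, 0.10 ± 0.14 for Dusp4, 0.19 ± 0.19 for Dusp5 and 0.01 ± 0.15 for Dusp6, and in CBP-ifKOs they were -0.22 ± 0.32, 0.09 ± 0.14, 0.24 ± 0.19 and 0.21 ± 0.14. The intervals of 2 SE in control mice reached from -0.17 to 0.37 for Dusp4 and from -0.29 to 0.30 for Dusp6. The Dusp1 value in control mice was 0.46 without control mouse 3 in SC. Etv1 and Etv5 differed by 0.05 ± 0.08 and 0.001 ± 0.08 (SE) in control mice and by 0.14 ± 0.08 and 0.13 ± 0.08 in CBP-ifKOs.

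**Figure D3:**
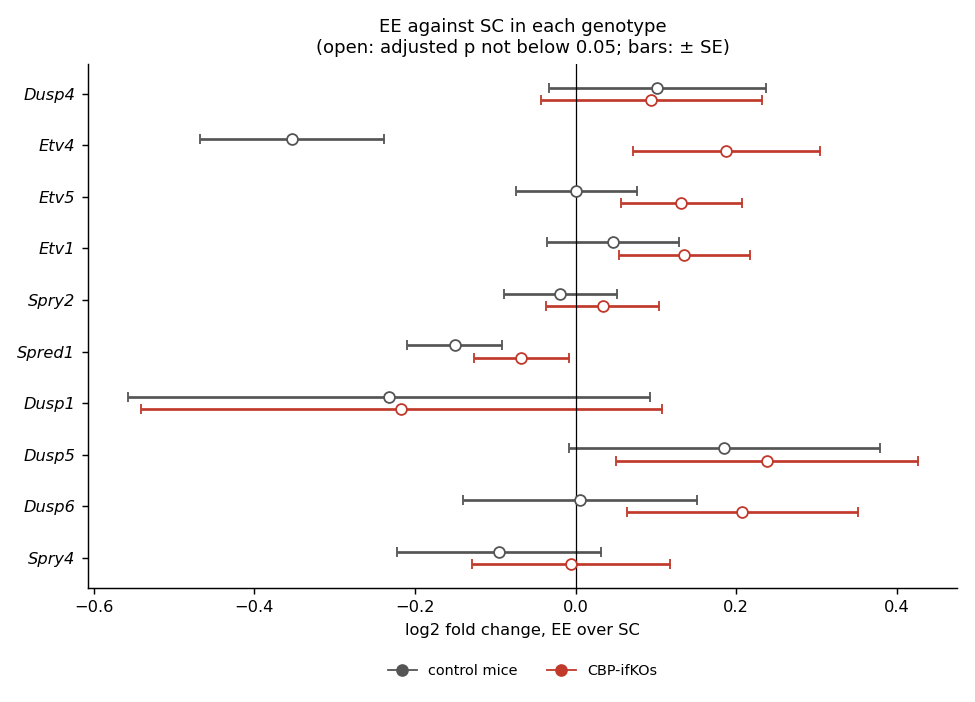
Log2 fold change of each gene in EE over SC (horizontal axis) in control mice and in CBP-ifKOs. Whiskers are ± SE, and no point passed an adjusted p of 0.05. Etv4 lay at -0.35 in control mice and at 0.19 in CBP-ifKOs.

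The difference between the genotype effects in the 2 housings was tested by the interaction, and 0 of 10 genes and 0% of all genes passed in edgeR, with 0 of 10 and 0 of all genes also in DESeq2. Etv4 was the 1 gene with an unadjusted p under 0.05, against 3.15% of all genes. Its interaction was 0.54 ± 0.16 on the log2 scale (SE; unadjusted p = 0.00458, adjusted p = 0.9998), and it ran from 0.44 to 0.63 over 17 alternatives and had an adjusted p of 0.442 or more in each. The Etv4 difference between housings thus did not pass when all genes were tested. For Dusp4 the interaction was -0.01 ± 0.19 (SE), with an interval of 2 SE from -0.39 to 0.38. Across the 10 genes the interactions ran from -0.01 to 0.54 with a median of 0.09, against a median of -0.01 over all genes.

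The 10 genes differed in how much they varied between mice of the same group. Within control mice in SC the coefficient of variation was 66.5% for Dusp1, 30.1% for Dusp5 and 21.9% for Dusp6, and 3.82% for Spred1, 3.48% for Etv1 and 3.49% for Etv5. The values of Dusp1 and Dusp6 rested on control mouse 3, and Dusp5 was highest in that mouse too. In CBP-ifKOs in SC it was 6.27% for Dusp1, 12.1% for Dusp5 and 4.98% for Dusp6, against 7.29% for Spred1, 8.51% for Etv1 and 11.2% for Etv5. In control mice in EE it was 23.8% for Dusp1, 8.45% for Dusp5 and 12.1% for Dusp6, against 2.51%, 9.88% and 3.24% for Spred1, Etv1 and Etv5, and 22.7% for Dusp4. In CBP-ifKOs in EE it was 30.4% for Dusp1, 26.2% for Dusp5 and 20.5% for Dusp6, against 3.83%, 9.21% and 5.84% for Spred1, Etv1 and Etv5. After the group means were removed, log2 CPM of Dusp1 and Dusp6 had a Pearson r of 0.91 over the 12 mice, Dusp5 and Dusp6 of 0.85, and Dusp1 and Dusp5 of 0.73. The 6 pairs of Dusp genes ran from 0.40 for Dusp4 and Dusp5 to 0.91, with a median of 0.70. The 12 pairs of a Dusp gene with a Sprouty or Spred gene ran from -0.33 for Dusp6 and Spred1 to 0.76 for Dusp5 and Spry4, with a median of 0.50. The pairs with Spred1 were all negative, from -0.33 to -0.04, and those with Spry2 or Spry4 ran from 0.48 to 0.76. The 12 pairs of a Dusp gene with an Etv gene ran from -0.27 to 0.34 with a median of -0.02, and the 9 of an Etv gene with a Sprouty or Spred gene from -0.50 to 0.55 with a median of 0.07. The 3 pairs among the Etv genes ran from -0.54 for Etv1 and Etv4 to 0.35 for Etv4 and Etv5, with a median of -0.32. The median of all 45 pairs was 0.26. These values are descriptions over 12 libraries that share the group structure and the scaling. Each of Dusp1, Dusp5 and Dusp6 was furthest above its group mean in control mouse 3 in SC, followed by CBP-ifKO 3 in EE.

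**Figure D4:**
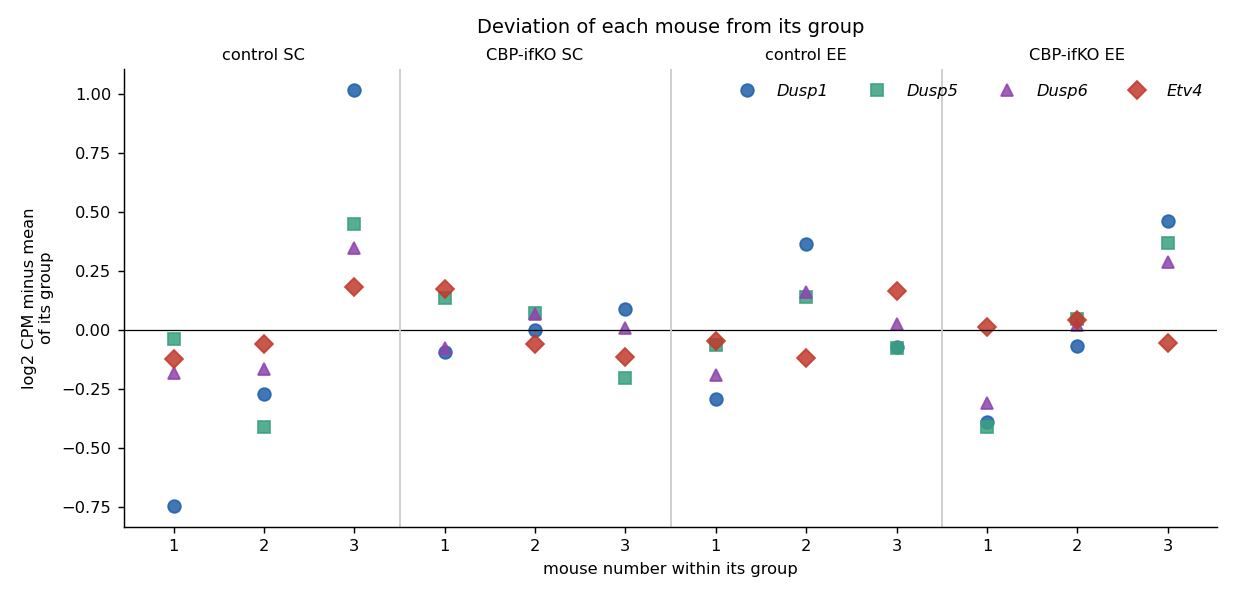
Log2 CPM of Dusp1, Dusp5, Dusp6 and Etv4 in each mouse minus the mean of its group (vertical axis), with the mice of the 4 groups side by side (horizontal axis). Dusp1, Dusp5 and Dusp6 lie together above 0 in control mouse 3 in SC and in CBP-ifKO 3 in EE.

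Other genes had patterns like these over the 12 mice, in log2 CPM among 18251 genes. Dusp1 was most like Btg2 (r = 0.957), an antiproliferative immediate early gene, Ccn1 (0.952), a matricellular immediate early gene, and Pabpc1l (0.892). Dusp6 was most like Egr4 (0.869) and Fosb (0.841), both activity-regulated transcription factor genes, and Il15 (0.841). Dusp4 was most like Ccdc88b (0.957), Bdnf (0.953), the gene of brain-derived neurotrophic factor, and Tanc1 (0.949), a gene of a postsynaptic scaffold protein. Each of these r is the highest of many and includes the difference between genotypes where there is one.

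Of the others, Etv4 was most like Spink10 (r = 0.935), Dhx58 (0.922) and Vit (0.920), and Spink10 was also the gene most like Spry2 (0.927), ahead of Adamts1 (0.920). Spred1 was most like Caskin2 (0.945), Pitpnc1 (0.934) and Slc8b1 (0.917). Among the genes most like Etv1 were Fam198b (0.931) and Il15ra (0.918), and Etv5 was most like Gm39323 (0.933), Phactr3 (0.919) and Abtb2 (0.915). Dusp5 was most like Atpaf1 (0.876) and Gp5 (0.863), and Spry4 like Gm33756 (0.881), Mettl15 (0.853) and Gm43612 (0.848).

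Around the 10 genes, 104 further genes of the MAP kinase pathways were followed in 8 lists. In SC, 12 of the 102 tested were lower in CBP-ifKOs and 1 was higher, where 4.02% of all genes were lower and 1.51% higher. In EE 12 of 101 were lower and 0 were higher, against 3.53% and 1.03% of all genes. Averaged over housing, 26 of 102 were lower and 4 were higher, against 10.3% and 6.64%. The median log2 fold change of these lists together was -0.08 in SC and -0.07 in EE, where that of all genes was -0.002 and 0.01. Housing passed for 0 of 102 in control mice and in CBP-ifKOs, with 6 and 8 at an unadjusted p under 0.05, and the interaction for 0, with 2 at an unadjusted p under 0.05. The corresponding unadjusted shares of all genes were 4.21%, 8.59% and 3.15%.

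Ligands and receptors upstream of ERK gave 4 lower of 19 in SC, 2 of 19 in EE and 8 of 19 averaged, against 4.02%, 3.53% and 10.3% of all genes. Bdnf, the ligand of the receptor TrkB, fell from 49.5 ± 4.81 to 31.6 ± 1.95 CPM (SD, n = 3) in SC and from 57.2 ± 8.49 to 35.2 ± 3.88 CPM in EE, log2 fold changes of -0.65 ± 0.08 (SE; adjusted p = 0.00102) and -0.69 ± 0.11 (adjusted p = 0.00546). Bdnf shares 896 exonic bases with an antisense gene. Fgfr1, a receptor of fibroblast growth factors, fell from 151 ± 1.58 to 120 ± 2.39 CPM in SC (log2 fold change -0.33 ± 0.05 (SE), adjusted p = 0.00302). The other genes lower in SC were Fgf1 and Fgf10, and Bdnf and Fgf10 were the 2 lower in EE.

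Within the cascade itself, 3 of 25 genes were lower in SC, among them Map2k1 and Rasgrp1, and 4 of 25 in EE, among them Map2k1, Rasgrp1 and Mapk3, and 0 were higher. Of all genes, 4.02% were lower and 1.51% higher in SC, and 3.53% and 1.03% in EE. Map2k1 and Mapk3 encode the kinases MEK1 and ERK1, and Rasgrp1 activates Ras. Averaged over housing, 6 of 25 were lower and 2 were higher, against 10.3% and 6.64% of all genes. The 2 higher, a share of 8% that is near that of all genes, were Nras and Araf. They differed by 0.18 ± 0.04 (SE; adjusted p = 0.0125) and 0.12 ± 0.03 (adjusted p = 0.0220) on the log2 scale. Among p38 and JNK kinases, 0 of 10 passed in SC, with 3 at an unadjusted p under 0.05 against 20.5% of all genes, and 1 of 10 in EE (Mapk10, lower). Of 7 effector kinases of ERK, Mknk1, a kinase that phosphorylates a translation initiation factor, was higher in SC (log2 fold change 0.26 ± 0.07 (SE), adjusted p = 0.0443), and 0 passed in EE.

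The families of the 10 genes had 1 other member in each list that passed within a housing. Of all genes, 4.02% were lower in SC, 3.53% in EE and 10.3% averaged over housing, where 6.64% were higher. Among other Dusp genes, 1 of 13 was lower in SC and 1 of 12 in EE, in both cases Dusp18, with log2 fold changes of -0.33 ± 0.06 (SE; adjusted p = 0.0121) and -0.45 ± 0.07 (adjusted p = 0.00495). Of 4 Sprouty and Spred genes and Il17rd tested, Spred2 was lower in both housings, with -0.40 ± 0.06 (SE; adjusted p = 0.00437) and -0.29 ± 0.06 (adjusted p = 0.0194), and Il17rd, an inhibitor of fibroblast growth factor signaling, averaged over housing (-0.42 ± 0.11 (SE), adjusted p = 0.0135). Among other ETS and SRF factors, 1 of 10 was lower in each housing, the repressor gene Erf. Averaged over housing 3 of 10 were lower, Erf, Elk4 (-0.27 ± 0.05 (SE), adjusted p = 0.00212) and Ets2 (-0.12 ± 0.04 (SE), adjusted p = 0.0368), and 1 was higher, Etv3 (0.19 ± 0.05 (SE), adjusted p = 0.0194).

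Of 14 other output genes of ERK, 2 were lower in each housing, Ccnd1 and Egr3, against 4.02% of all genes in SC and 3.53% in EE. Ccnd1, the gene of cyclin D1, fell from 37.5 ± 4.25 to 24.5 ± 1.05 CPM (SD, n = 3) in SC and from 33.3 ± 2.22 to 22.9 ± 1.36 CPM in EE, log2 fold changes of -0.61 ± 0.09 (SE; adjusted p = 0.00233) and -0.53 ± 0.08 (adjusted p = 0.00471). Egr1, Egr4, Fos and Fosb did not pass in either housing. Fos ranged from 4.83 to 47.3 CPM among control mice in SC and from 5.22 to 35.6 CPM among CBP-ifKOs in EE, a spread wider than that of Dusp1 in the same groups. Spred2, Il17rd, Erf, Elk4, Ets2, Egr3, Fgf1, Fgf10, Map2k1, Mapk3, Mapk10, Rasgrp1 and Araf are named as genes of their lists that passed, and Egr1, Egr4, Fos and Fosb as activity-regulated genes, all after their values were seen.

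**Figure D5:**
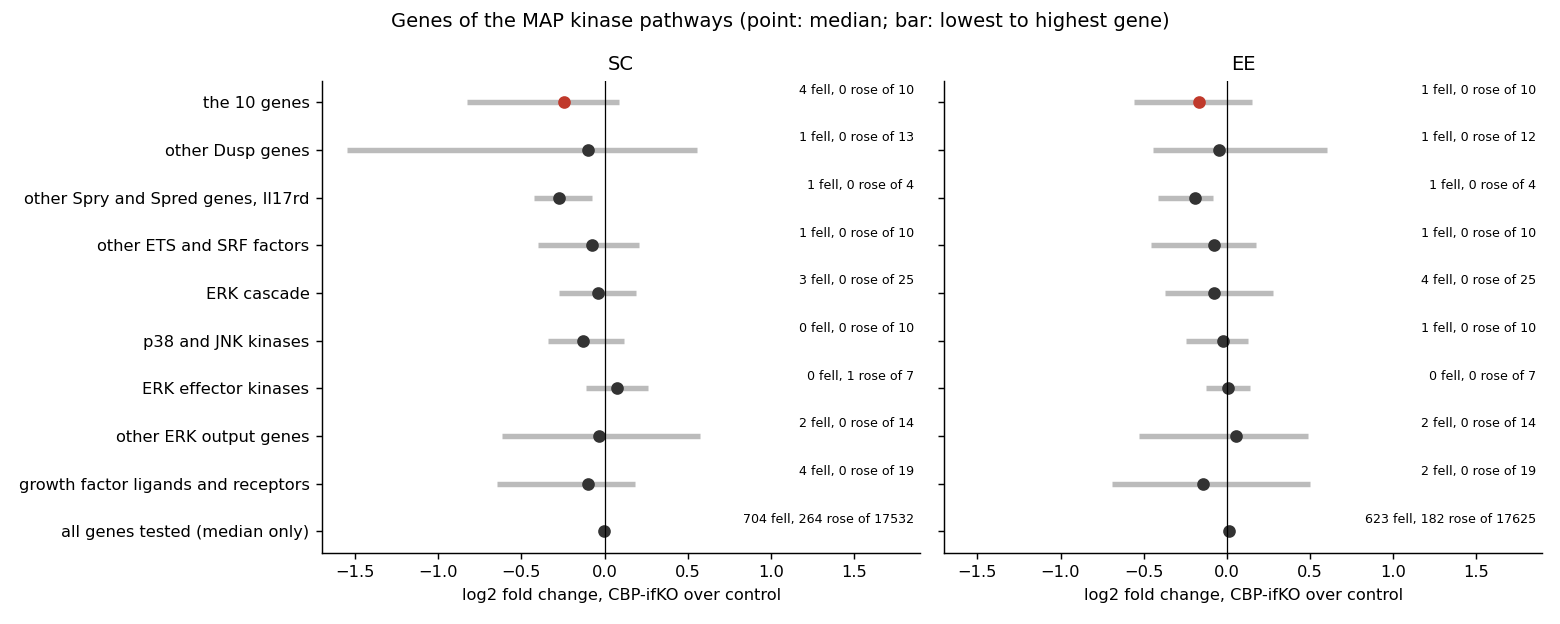
Median log2 fold change (points) and range from lowest to highest gene (bars) of the 10 genes and the 8 lists, CBP-ifKO over control, in SC and in EE, with the number that passed in each direction. For all genes tested the median alone is drawn. The 10 genes have a median of -0.25 in SC and -0.17 in EE.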

How the data were processed

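RNA of 12 hippocampi was read as 50 bp single-end reads in 2 runs per mouse. Per the labels, processing used FastQC 0.11.8, Trim Galore 0.6.4, STAR 2.6.1 and DESeq2 1.30.1. The authors aligned reads to mm10 and counted them on exons, and they deposited their raw gene counts with the runs of a mouse merged. Whether strand was used in counting is not given in the sources used here. The deposited gene length, a value of the annotation, is a score in bases and was used only for levels per kilobase.

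Counts were analyzed here with edgeR 4.0.16 in R 4.3.3, with its expression filter, TMM normalization, quasi-likelihood F tests, and p adjusted by Benjamini-Hochberg over all genes at 0.05. Genotypes were compared in the 6 mice of a housing, and the other comparisons were made in all 12 mice with 1 coefficient per group. Comparisons share mice. The members and lists were chosen with earlier results of these data known. Genes were named by rule: the 10 members, Crebbp, up to 3 genes of the pathway lists per comparison and direction with the smallest p among those passed, and the 3 genes most like each member, some of which are not reported here; the text lists the genes named outside this rule, after their values were seen. Log2 CPM used a prior count of 2. Alternatives were DESeq2 1.42.0, its size factors, no filter, halved CBP-ifKO counts, the replicate number as a block, all mice in 1 fit, other fold thresholds and leaving out each mouse. The procedure was tested on simulated data. Those counts were drawn independently for each gene and mouse, without even-only libraries or an outlying mouse, so the simulation does not cover these features. A floor of 3 counts corresponded to 0.0775 to 0.116 CPM, for counting error only. Positions are from GENCODE annotation of GRCm38. Authors' fold changes were not used.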

Additional observations from a re-analysis of the deposited data

How the results depend on the processing

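Of 1220 alternative values, 55 changed sign, all for changes that had not passed the threshold and were at most 0.31 in size on the log2 scale. The number of the 10 genes lower in CBP-ifKOs in EE was 0 with halved CBP-ifKO counts, where 815 of all genes passed against 805 as deposited. Leaving out 1 mouse gave 1 to 5 such genes in SC and 0 to 1 in EE, with 399 to 1908 and 285 to 1016 of all genes passing. DESeq2 turned the averaged genotype value of Dusp6 to 0.00066. The cause of these changes was not tested, except that leaving out mice leaves fewer samples.

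Whether replicate numbers pair the mice was not settled. Correlations of deviations between same-numbered mice ran from -0.067 to 0.305 over all pairs of groups. They were positive throughout between control mice of both housings, at 0.034 to 0.305, and between the genotypes in EE, at 0.034 to 0.124. Deviations sum to 0 within a group, so correlations of different numbers largely follow from these and are no separate comparison. With the replicate number as a block, 4 genes passed in SC, 1 in EE and 6 averaged over housing, as without it, and the interaction turned to -0.14 for Dusp1 and 0.01 for Dusp4. Over the whole table the block gave 1041 calls in SC, 1089 in EE and 3374 averaged.

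Leaving out 1 mouse at a time moved the following log2 fold changes across 0. In the genotype comparison in SC, Dusp1 ran from -0.62 to 0.38, Dusp5 from -0.09 to 0.35, Dusp6 from -0.19 to 0.10 and Spry4 from -0.10 to 0.14. In EE, Dusp5 ran from -0.05 to 0.33 and Dusp6 from -0.05 to 0.25. Averaged over housing, Dusp1 ran from -0.46 to 0.05, Dusp6 from -0.08 to 0.10 and Spry4 from -0.01 to 0.11. For housing in control mice, Dusp1 ran from -0.54 to 0.46, Dusp4 from -0.09 to 0.24, Dusp6 from -0.09 to 0.20, Etv1 from -0.03 to 0.11, Etv5 from -0.02 to 0.03, Spry2 from -0.07 to 0.05 and Spry4 from -0.15 to 0.02, and in CBP-ifKOs Spry4 from -0.15 to 0.08. Averaged over genotype, Dusp1 ran from -0.38 to 0.12, Spry2 from -0.02 to 0.04 and Spry4 from -0.12 to 0.01. The interaction ran from -0.67 to 0.33 for Dusp1, -0.14 to 0.18 for Dusp4, -0.20 to 0.24 for Dusp5, -0.02 to 0.10 for Spry2 and -0.06 to 0.18 for Spry4.

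Over the whole table, 968 genes passed in SC and 805 in EE, against 1512 and 1677 with low counts retained, 1272 and 1251 in DESeq2, and 1020 and 1293 with all mice in the fit. Housing in control mice gave 0 genes, against 145 with low counts retained and 15 in DESeq2, with 0 of the 10 genes among them. With low counts retained, 247 genes passed for housing in CBP-ifKOs, 334 averaged over genotype, 114 in the joint test and 110 in the interaction, again with 0 of the 10. Retaining low counts let Dusp1 pass averaged over housing (log2 fold change -0.32, adjusted p = 1.50e-04). With the filter the fold change was about the same and did not pass (-0.31 ± 0.23 (SE), adjusted p = 0.414). It was 0.05 without control mouse 3 in SC.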
